A study of Mus musculus with 6 samples.

Results

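Lysyl oxidases and the enzymes that trim procollagen are described here as a set of 10 genes, matched to the count table by their symbols. They are the 5 lysyl oxidases Lox, Loxl1, Loxl2, Loxl3 and Loxl4, the procollagen C-proteinase gene Bmp1, its enhancers Pcolce and Pcolce2, and the procollagen N-proteinase genes Adamts2 and Adamts14. All 10 were among the 24411 genes of the table and among the 13466 with enough counts to be tested. They were measured by RNA-seq of total RNA from Achilles tendons, all from mice of the C57BL/6 strain at 18 weeks of age. The mutant genotype, Scx-Cre/Piezo1 GOF, pairs a gain-of-function (GOF) form of the mechanically gated cation channel Piezo1 with a Cre recombinase under control of the tendon gene Scx, and 3 libraries carried it. In the other 3 libraries the genotype was given as WT, with no Cre and no other allele named. Scx is active in tendon cells and their precursors, so the alleles mark a cell lineage, while each library was made from the whole dissected tissue. The labels do not say that the 3 libraries of a genotype came from separate mice, so each p-value sets a difference against a spread that may be technical only.

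Fibrillar procollagens are secreted with a propeptide at each end. ADAMTS2 and ADAMTS14 cut off the N-terminal one and BMP1 the C-terminal one, a step that the PCOLCE proteins speed up by binding the substrate. The trimmed molecules assemble into fibrils, in which lysyl oxidases, copper-dependent amine oxidases, oxidise lysine and hydroxylysine side chains so that crosslinks form between neighbouring molecules. BMP1 also cuts the propeptide from the LOX precursor, so that the trimming and the crosslinking enzymes act in one chain. In tendon, these crosslinks add to the tensile strength of the fibrils.

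Of the 10 genes, 6 were higher in each Piezo1 GOF library than in every WT library, namely Lox, Loxl3, Loxl4, Pcolce, Pcolce2 and Adamts2. The other 4, Loxl1, Loxl2, Bmp1 and Adamts14, overlapped between the genotypes. A positive log2 fold change was found for 8 of the 10, against 49.7% of all genes. The sign of a fold change, here and below, is that of its log2 value. Of all genes tested, 13.6% were higher without overlap and 12.1% lower. The 6 genes were also those with an unadjusted p under 0.05 by edgeR's quasi-likelihood test, against 10.2% of all genes in that direction. They stayed the same 6 without any 1 of the 6 libraries. In those fits 6.93% to 13.3% of all genes were higher and 4.64% to 10.7% lower at that cutoff. None of the 10 passed the adjusted threshold of 0.05 by that test, which called 0.0149% of genes higher and 0% lower. DESeq2 called the same 6 and no other member, against 3.45% of genes called higher, and edgeR's exact test called 6 higher and 0 lower (3.36% and 1.76% of genes). Limma voom, run with sample quality weights here and below, called 1 member higher, Pcolce2, and 0 lower (0.72% and 0.141% of genes). The count by DESeq2 was 5 without Piezo1 GOF replicate 1, where Adamts2 was lost, or WT replicate 1, where Loxl4 was lost. It was 3 (Lox, Pcolce and Pcolce2) without WT replicate 2. Without Piezo1 GOF replicate 2, Piezo1 GOF replicate 3 or WT replicate 3 it was 2, Lox and Pcolce2. The share of all genes called by DESeq2 was not counted with a library left out. The median log2 fold change of the 10 genes was 0.91, against -0.0045 over all genes tested.

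**Figure D1:**
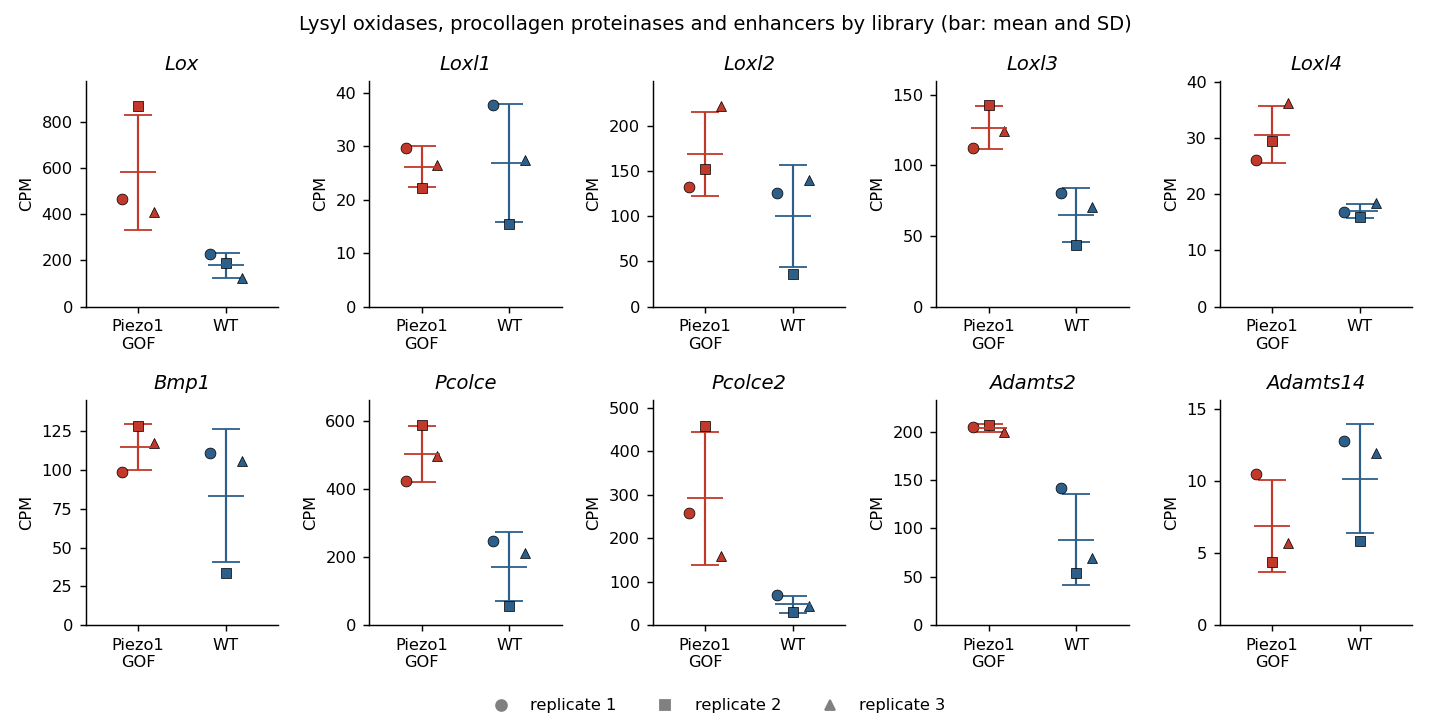
CPM (counts relative to the scaled library total, y axis from 0) of each gene in every library, with Piezo1 GOF in red on the left and WT in blue on the right. Points are libraries, and bars give the mean and SD of 3. For Lox, Loxl3, Loxl4, Pcolce, Pcolce2 and Adamts2 the red points all lie above the blue ones, and WT replicate 2 is the lowest library for Loxl1, Loxl2, Loxl3, Loxl4, Bmp1, Pcolce, Pcolce2 and Adamts2.

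The sequence just upstream of the start site is shown for Pcolce2, which had the largest fold change of the 10, and for the N-proteinase pair Adamts2 and Adamts14, whose fold changes had opposite signs. The sequences are from RefSeq on GRCm38.p6, run 5′ to 3′ on the strand of the gene, and stop before the first annotated exon base. Capitals mark the E-box CANNTG, the kind of motif that basic helix-loop-helix factors such as the Scx protein bind.
Pcolce2, chr9:95637378-95637600, plus strand: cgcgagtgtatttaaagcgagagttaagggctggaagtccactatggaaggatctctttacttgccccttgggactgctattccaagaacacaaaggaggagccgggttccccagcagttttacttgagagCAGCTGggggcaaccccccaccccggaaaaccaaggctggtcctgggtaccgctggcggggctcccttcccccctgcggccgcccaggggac
Adamts2, chr11:50601835-50602083, plus strand: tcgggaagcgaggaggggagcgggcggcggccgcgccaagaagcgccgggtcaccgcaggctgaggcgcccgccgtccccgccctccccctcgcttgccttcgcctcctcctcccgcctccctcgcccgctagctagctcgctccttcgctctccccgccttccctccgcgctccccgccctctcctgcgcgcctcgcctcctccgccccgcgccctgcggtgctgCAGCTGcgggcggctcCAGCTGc
Adamts14, chr10:61273439-61273669, minus strand: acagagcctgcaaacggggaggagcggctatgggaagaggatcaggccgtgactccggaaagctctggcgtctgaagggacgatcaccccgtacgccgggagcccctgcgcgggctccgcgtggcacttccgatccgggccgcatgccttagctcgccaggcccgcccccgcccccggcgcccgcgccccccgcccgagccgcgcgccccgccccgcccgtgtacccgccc
Windows from the promoter table were examined for 5 of the 10 genes, Loxl4, Pcolce, Pcolce2, Adamts2 and Adamts14. No window was examined for Lox, Loxl1, Loxl2, Loxl3 or Bmp1, so the motif counts below do not cover these genes. In the 250 bases before the start, the E-box, which reads the same on both strands, was found 6 times for Pcolce, once for Pcolce2 (119 bases before the start), 2 times for Adamts2 (24 and 8 bases before it) and 0 times for Loxl4 and Adamts14. The start used for Pcolce is internal: its window begins 2130 bases inside the gene as annotated by GENCODE and holds 83 bases of annotated exons. Of 32851 such windows in the table, 66.2% held an E-box. Distances are counted from the RefSeq start. The printed sequences of Pcolce2 and Adamts2 stop 27 and 1 bases short of that start. On either strand none of the 5 windows held the TATA box letters TATAAA, which were in 12.4% of all windows. None held the TEAD factor motif GGAATG, found in 12.6%, and none the AP-1 motif TGANTCA, found in 6.75%. The windows of Loxl4, Adamts2 and Adamts14 were rich in G and C, at 76.0%, 78.0% and 76.4%, against 61.2% for Pcolce2 and 58.8% for Pcolce. These are matches of letters and do not show binding.

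Among the lysyl oxidases, Lox had the highest mean level per length in both genotypes and the largest fold change, although Loxl2 was above it in WT replicate 3. Lox (ENSMUSG00000024529.14; chromosome 18), which crosslinks collagen and elastin, had levels of 467, 866 and 409 CPM in Piezo1 GOF and of 229, 187 and 121 CPM in WT. The lowest mutant library stood well above the highest WT library, and Piezo1 GOF replicate 2 stood far above the other two mutant libraries. The log2 fold change was 1.70 ± 0.38 (SE; 95% interval 0.83 to 2.56; edgeR adjusted p = 0.104), or 3.24-fold in the fit. Without Piezo1 GOF replicate 2 it was 1.31, and DESeq2 gave an adjusted p of 2.68e-04 with all 6 libraries.

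Loxl3 (ENSMUSG00000000693.10; chromosome 6, plus strand, 83034173 to 83052562 of mm10), a family member with scavenger receptor domains ahead of the catalytic domain, was at 113, 143 and 125 CPM in Piezo1 GOF and at 80.7, 43.9 and 70.7 CPM in WT. All mutant libraries were above all WT libraries, and the log2 fold change was 0.96 ± 0.26 (edgeR adjusted p = 0.139; DESeq2 adjusted p = 0.0269). Loxl3 was the only one of the 10 with counts that were not whole, in all 6 libraries. Its exons share 535 bases with those of Htra2, a mitochondrial protease gene on the opposite strand, which averaged 15.3 CPM in Piezo1 GOF and 16.5 CPM in WT. The use of strand in counting is not given in the sources used here, so the reads of this pair could be shared and the Loxl3 value is uncertain to that extent.

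Loxl4 (ENSMUSG00000025185.14; chromosome 19, minus strand, 42593982 to 42612813), of the same subgroup with scavenger receptor domains, was at 26.1, 29.5 and 36.1 CPM in Piezo1 GOF and at 16.9, 15.9 and 18.3 CPM in WT. The WT libraries lay close together here, and the log2 fold change of 0.85 ± 0.21 had the smallest error of the 10 (edgeR adjusted p = 0.124). Loxl4 was also the gene whose log2 fold change moved least between settings, from 0.72 to 0.96.

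Loxl2 (ENSMUSG00000034205.16; chromosome 14, plus strand, 69609068 to 69695834), which crosslinks collagen IV of basement membranes among other substrates, was at 133, 152 and 222 CPM in Piezo1 GOF and at 125, 35.6 and 140 CPM in WT. WT replicate 3 was above the lowest mutant library, and WT replicate 2 was far below the others. Loxl2 shares 301 exon bases with the antisense gene Gm27177 on the opposite strand, which was not among the genes counted. As the use of strand is not given, reads of Gm27177 could be counted for Loxl2. The log2 fold change was 0.75 ± 0.46 (95% interval -0.29 to 1.79; edgeR adjusted p = 0.382), and 0.35 without WT replicate 2.

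Loxl1 (ENSMUSG00000032334.10; chromosome 9, minus strand, 58287738 to 58313186), which is needed for elastic fibre renewal in mice, was at 29.8, 22.3 and 26.6 CPM in Piezo1 GOF and at 37.7, 15.5 and 27.5 CPM in WT. The mutant values fell inside the WT range. Loxl1 had a log2 fold change of -0.03 ± 0.32, and its 95% interval of -0.75 to 0.68 leaves room for a difference of either sign. Leaving out WT replicate 1 gave 0.32 and leaving out WT replicate 2 gave -0.32, so its sign depended on single WT libraries.

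The make-up of the family was compared within each library. Per length of the annotated exons, Lox made up 60.3%, 71.3% and 50.2% of the summed lysyl oxidase CPM per kb in Piezo1 GOF and 46.0%, 61.5% and 32.0% in WT. In WT replicate 3 the Loxl2 share, at 32.7%, was slightly above that of Lox. Loxl1 made up 5.58%, 2.66% and 4.74% in Piezo1 GOF and 10.998%, 7.37% and 10.5% in WT. For Lox the genotypes overlapped in this share, and for Loxl1 every mutant library was below every WT library. The log2 ratio of Lox to Loxl1 counts within a library averaged 4.39 ± 0.76 in Piezo1 GOF and 2.77 ± 0.74 in WT (SD, n = 3 each), without overlap. The difference of 1.62 had a two-sided exact permutation p = 0.1, the smallest that 3 against 3 can give, and p = 0.2 after adjustment over the 8 ratios compared. The ratio of Lox to Loxl2 overlapped (difference 0.72; exact permutation p = 0.4), as did that of Loxl2 to Loxl1 (difference 0.90; exact permutation p = 0.2).

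**Figure D2:**
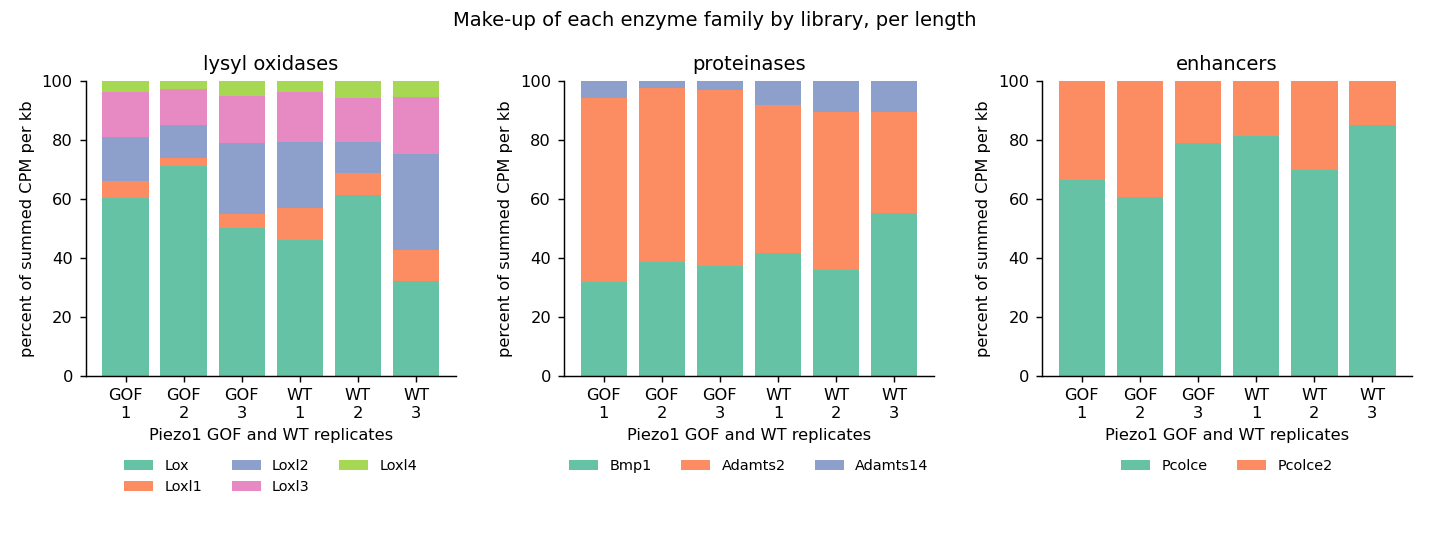
Share of each gene in the summed CPM per kb of its family (y axis, percent) in each library, with the 3 Piezo1 GOF libraries to the left of the 3 WT libraries. The Loxl1 share is below 6% in the mutant libraries and above 7% in the WT libraries, and the Adamts14 share is 2.26% to 5.77% in Piezo1 GOF against 8.16% to 10.7% in WT.

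Both enhancers of the C-proteinase were higher in every mutant library than in every WT library. Pcolce (ENSMUSG00000029718.14; chromosome 5, minus strand, 137605103 to 137613784), which encodes the enhancer PCPE-1, was at 422, 587 and 498 CPM in Piezo1 GOF and at 246, 56.3 and 211 CPM in WT. Every mutant library was above every WT library, and WT replicate 2 was far below the other two. The log2 fold change was 1.56 ± 0.49 (95% interval 0.45 to 2.66; edgeR adjusted p = 0.168; DESeq2 adjusted p = 0.0152), and it was 1.13 without WT replicate 2. Pcolce shares 112 exon bases with Fbxo24 on the same strand, which was at 0.200 CPM in Piezo1 GOF and 0.0639 CPM in WT and had too few counts to be tested. It also shares 112 exon bases with the antisense gene Gm36266 on the opposite strand, which was not among the genes counted. As the use of strand is not given, reads of Gm36266 could be counted for Pcolce.

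Pcolce2 (ENSMUSG00000015354.8; chromosome 9, plus strand, 95637601 to 95698096 of mm10), which encodes the paralogue PCPE-2, was at 257, 459 and 159 CPM in Piezo1 GOF and at 68.5, 29.6 and 44.5 CPM in WT. The groups lay far apart, although the mutant libraries themselves spanned from 159 to 459 CPM. Pcolce2 had a log2 fold change of 2.62 ± 0.45 (95% interval 1.59 to 3.64), or 6.14-fold in the fit, the largest of the 10. Its edgeR adjusted p of 0.0572 missed the threshold, and it passed without WT replicate 1 (0.0370) or with no count filter (0.0160). Leaving out any other library gave 0.0919 to 0.219, and total counts only gave 0.0886. It ranked 62 by p among the 13466 genes.

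The enhancers were also compared with each other within each library. Per length, Pcolce2 took 33.5%, 39.3% and 20.9% of the summed enhancer CPM per kb in Piezo1 GOF and 18.7%, 30.3% and 14.8% in WT, with overlap. The log2 ratio of Pcolce2 to Pcolce counts averaged -0.90 ± 0.66 in Piezo1 GOF and -1.67 ± 0.68 in WT (SD, n = 3 each). The difference of 0.76 was not separated from the spread between libraries (exact permutation p = 0.2; adjusted p = 0.267 over the 8 ratios).

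The proteinases themselves were split. Adamts2 (ENSMUSG00000036545.8; chromosome 11, plus strand, 50602084 to 50807573), the main N-proteinase of type I procollagen, was at 205, 207 and 199.6 CPM in Piezo1 GOF and at 142, 53.7 and 69.2 CPM in WT. The mutant libraries were within a few CPM of each other, while the WT libraries varied widely and all lay below. Its log2 fold change was 1.21 ± 0.35 (95% interval 0.41 to 2.01; edgeR adjusted p = 0.153; DESeq2 adjusted p = 0.0228). Adamts2 passed without WT replicate 1, where its log2 fold change was 1.75 (edgeR adjusted p = 0.0343). Leaving out any other library gave edgeR adjusted p of 0.168 to 0.356, and a log2 fold change of 0.95 without WT replicate 2.

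Adamts14 (ENSMUSG00000059901.12; chromosome 10, minus strand, 61197112 to 61273438), a close relative of Adamts2 with the same cleavage, was low throughout, at 10.5, 4.41 and 5.71 CPM in Piezo1 GOF and at 12.8, 5.81 and 12.0 CPM in WT. These CPM stand on 44 to 81 counts in the mutant libraries and 91 to 119 in WT. Its log2 fold change of -0.57 ± 0.43 (95% interval -1.55 to 0.41; edgeR adjusted p = 0.484) was the lowest of the 10, and 1 mutant library fell within the WT range. It was -1.002 without Piezo1 GOF replicate 1.

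Bmp1 (ENSMUSG00000022098.10; chromosome 14, minus strand, 70474558 to 70520234), the C-proteinase, was at 99.0, 129 and 117 CPM in Piezo1 GOF and at 111, 33.9 and 106 CPM in WT. Apart from WT replicate 2, the libraries of both genotypes lay in one narrow range. The log2 fold change was 0.46 ± 0.40 (95% interval -0.44 to 1.37; edgeR adjusted p = 0.537), and 0.08 without WT replicate 2. The log2 ratio of Bmp1 to Adamts2 counts averaged -0.83 ± 0.19 in Piezo1 GOF and -0.14 ± 0.66 in WT (SD, n = 3 each), without overlap (difference -0.70; exact permutation p = 0.1; adjusted p = 0.2). In WT replicate 2 this ratio, at -0.66, nearly touched the highest mutant value of -0.69.

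**Figure D3:**
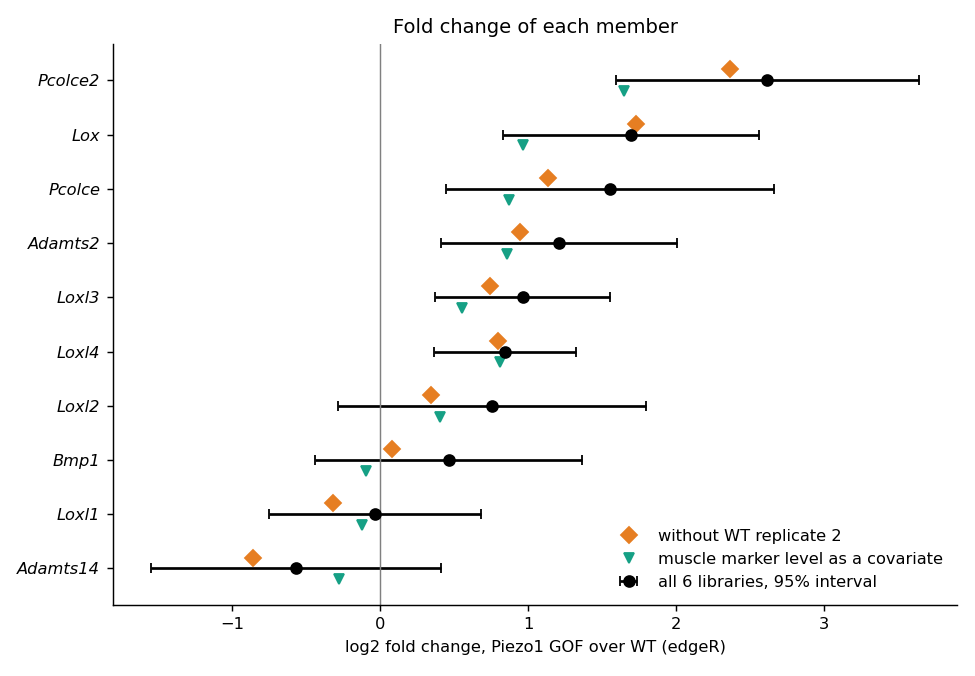
Log2 fold change of each gene, Piezo1 GOF over WT (x axis), with all 6 libraries and its 95% interval (black), without WT replicate 2 (orange) and with the muscle marker level as a covariate (green). The intervals of Pcolce2, Lox, Pcolce, Adamts2, Loxl3 and Loxl4 lie above 0, and those of Loxl2, Bmp1, Loxl1 and Adamts14 hold 0.

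Ordered by CPM per kb, the 10 genes in Piezo1 GOF ran from Pcolce (131 ± 21.5; SD, n = 3) and Lox (122 ± 52.2) through Pcolce2 (63.1 ± 33.0), Loxl2 (31.2 ± 8.65), Loxl3 (27.5 ± 3.33), Adamts2 (21.8 ± 0.422), Bmp1 (13.0 ± 1.69), Loxl1 (7.95 ± 1.14) and Loxl4 (7.26 ± 1.204) to Adamts14 (1.32 ± 0.620). Loxl3, Adamts2, Bmp1 and Loxl4 did not overlap the next gene down, and the other neighbours did. In WT the order was Pcolce (44.7 ± 26.4), Lox (37.5 ± 11.3), Loxl2 (18.6 ± 10.5), Loxl3 (14.1 ± 4.13), Pcolce2 (10.3 ± 4.24), Adamts2 (9.45 ± 5.04), Bmp1 (9.41 ± 4.85), Loxl1 (8.16 ± 3.37), Loxl4 (4.04 ± 0.289) and Adamts14 (1.96 ± 0.734). There only Loxl1 and Loxl4 were separated from the next gene down. Pcolce2 stood above Loxl2 and Loxl3 in the mutant and below both in WT, and the rest kept their relative order. These levels rest on merged exon lengths of GENCODE M21, from 3297 bases for Loxl1 to 9336 for Adamts2, and not on the isoforms expressed.

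Fibrillar procollagens, the substrates of these enzymes, were set beside them. Of 11 fibrillar procollagen genes, all had positive fold changes, and the median log2 fold change was 1.09. An unadjusted p under 0.05 by edgeR was reached by 5, against 10.2% of all genes in that direction, and 0 passed after adjustment. The 3 with the smallest p were Col5a2 (1.34 ± 0.46), Col1a2 (2.29 ± 0.91) and Col2a1 (1.69 ± 0.69), with edgeR adjusted p of 0.185, 0.221 and 0.228. The log2 ratio of summed lysyl oxidase counts to those of Col1a1, Col1a2 and Col3a1 was -4.06, -4.08 and -4.06 in Piezo1 GOF and -3.88, -0.26 and -3.59 in WT. The 3 mutant libraries agreed closely and lay just below WT replicates 1 and 3, and WT replicate 2 stood apart from all the others. The difference was -1.49 (exact permutation p = 0.1; adjusted p = 0.2), and without WT replicate 2 it was -0.33. For Bmp1, Adamts2 and Adamts14 together the log2 ratio was -5.35, -5.91 and -5.40 in Piezo1 GOF and -4.76, -1.94 and -4.61 in WT. Here too the mutant values were all below the WT values, with a difference of -1.79 (exact permutation p = 0.1; adjusted p = 0.2) that was -0.87 without WT replicate 2. For the 2 enhancers it was -4.24, -4.29 and -4.38 in Piezo1 GOF and -4.52, -2.06 and -4.16 in WT, with overlap (difference -0.73; exact permutation p = 0.6), and the difference was 0.03 without WT replicate 2.

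**Figure D4:**
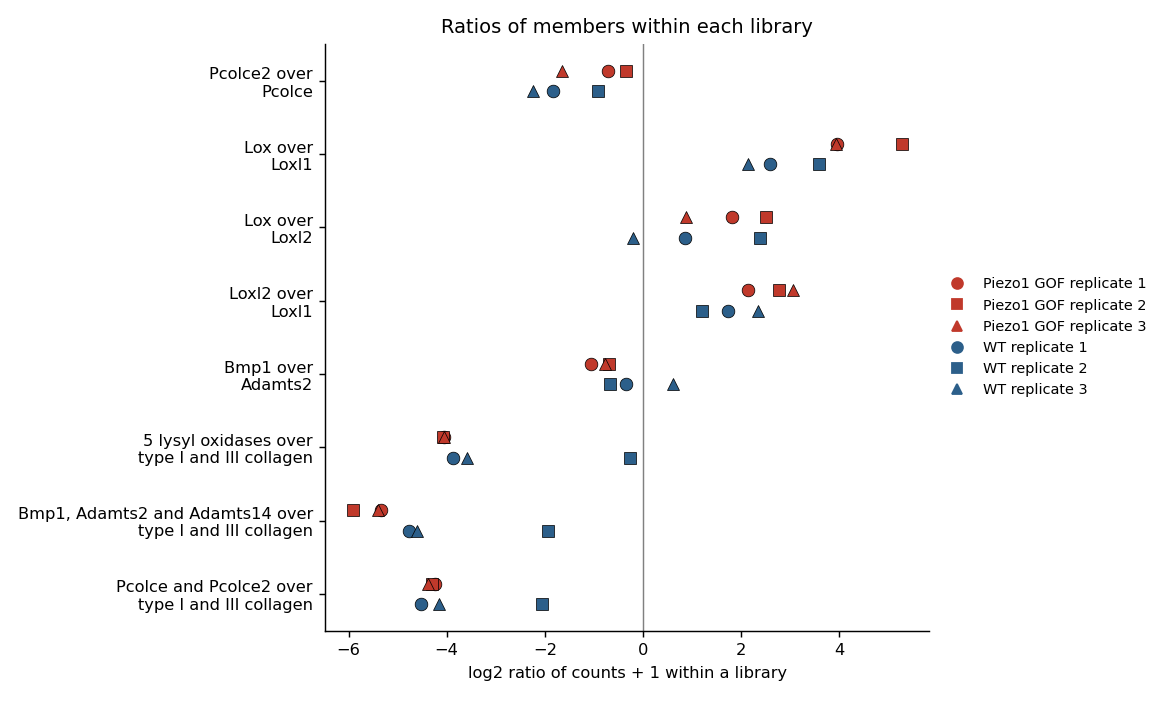
Log2 ratio of counts within each library (x axis) for the 8 ratios compared, with Piezo1 GOF libraries in red above WT libraries in blue and a marker shape for each replicate number. WT replicate 2 (blue square) lies apart from the other 5 libraries in all 3 ratios to type I and III collagen, and the genotypes do not overlap for Lox over Loxl1, Bmp1 over Adamts2, the lysyl oxidases over collagen and the proteinases over collagen.

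Other genes of the pathway were counted from lists. Of 9 further proteinases of procollagen and convertases that activate such enzymes, 7 were tested, 2 of them with positive fold changes, and the median log2 fold change was -0.24. Pcsk6, a proprotein convertase, was at 112, 92.4 and 73.0 CPM in Piezo1 GOF and at 55.6, 51.4 and 52.1 CPM in WT, without overlap (0.80 ± 0.22; edgeR adjusted p = 0.136). The tolloid gene Tll1, a relative of Bmp1, had -0.68 ± 0.62, the convertase gene Pcsk7 -0.24 ± 0.23, and the meprin genes Mep1a and Mep1b had a count of 0 in all libraries.

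Of 11 partners of lysyl oxidase or BMP1, 9 had a positive fold change and the median was 0.57. An unadjusted p under 0.05 was reached by 4 that were higher and 1 that was lower (10.2% and 9.59% of all genes). The lower one was Postn, whose product periostin binds BMP1 and helps it to act on pro-LOX. Postn was at 29.6, 17.7 and 48.2 CPM in Piezo1 GOF and at 94.1, 38.7 and 215 CPM in WT. Only WT replicate 2 overlapped the mutant range, and the log2 fold change was -1.86 ± 0.59 (edgeR adjusted p = 0.168; DESeq2 adjusted p = 0.0138, with 2.49% of genes called lower). Sfrp2, whose secreted product binds BMP1, had a log2 fold change of 2.72 ± 0.95, and the thrombospondin gene Thbs1 one of 1.23 ± 0.44.

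Of 7 BMP1 substrates other than fibrillar collagen, 6 had a positive fold change, and the median was 1.03. An unadjusted p under 0.05 was reached by 4, all of them higher (10.2% of all genes). The smallest p values were those of the proteoglycan genes Dcn (2.38 ± 0.57) and Ogn (1.99 ± 0.61) and of Chrd (1.04 ± 0.32), whose product chordin binds BMPs until it is cut. Of 17 genes that modify or fold collagen inside the cell, 14 had a positive fold change, and the median was 0.75. Here 7 had an unadjusted p under 0.05, all of them higher (10.2% of all genes). Plod2, a lysyl hydroxylase that prepares the telopeptide lysines for crosslinking, had 2.09 ± 0.29, the prolyl hydroxylase gene P4ha1 1.90 ± 0.42 and the peptidyl-prolyl isomerase gene Ppib 1.03 ± 0.26. None of the members of these 4 lists passed the adjusted threshold of edgeR's quasi-likelihood test.

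By Pearson correlation of log2 CPM over the 6 libraries, the genes most like Lox, of 10843 compared, were Creld2, Brd9, Cks1b, Blvrb and Ormdl1 (r from 0.989 to 0.992; Spearman's rho 0.943 or 1). Those most like Pcolce2 were Cox4i2, Ndufa4l2, Emb, Myoc and Gja1 (r from 0.995 to 0.998; rho 1). The genes compared had a mean of at least 5 CPM. The 10 members, the pathway genes listed above and the cell type markers below were left out, so none of them could be named. With 6 points that share genotype and tissue content, the names given are a description only.

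The content of the libraries differed along with the members. The 14 skeletal muscle markers summed to 36367, 10865 and 27779 CPM in Piezo1 GOF and to 40806, 74230 and 52251 CPM in WT, none was at 0 in any library, and 13 of 14 had negative fold changes. The 10 enzyme and enhancer genes summed to 1762, 2599 and 1797 CPM in Piezo1 GOF and to 1069, 478 and 820 CPM in WT. The library lowest in muscle markers, Piezo1 GOF replicate 2, was thus the highest for these genes, and the library highest in muscle markers, WT replicate 2, the lowest. With the summed muscle level as a covariate, Pcolce2 had a log2 fold change of 1.65 ± 0.40, Lox 0.97 ± 0.42, Pcolce 0.87 ± 0.59, Adamts2 0.86 ± 0.45, Loxl4 0.81 ± 0.30, Loxl3 0.55 ± 0.30 and Bmp1 -0.09 ± 0.51. In that fit Pcolce2 and Loxl4 alone of the 10 kept an unadjusted p under 0.05. The share of all genes under that cutoff was not counted for this fit. None of the 10 passed after edgeR's adjustment, and neither did any other gene tested. In bulk tissue, fewer cells of a type and less RNA per cell cannot be told apart.

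All 10 tenocyte markers, which define the labelled tissue, were detected in every library. They summed to 22123, 36805 and 24929 CPM in Piezo1 GOF and to 11474, 4857 and 8638 CPM in WT, all 10 with positive fold changes. Among them Col1a1, Fmod and Dcn were also in the pathway lists above, and Dcn alone made up 18.7% to 44.9% of the sum. Col2a1, a chondrocyte marker, was also among the fibrillar procollagens. Of 12 macrophage markers 12 were positive, with sums of 666 to 822 CPM in Piezo1 GOF and 181 to 282 CPM in WT. Of 11 chondrocyte markers 7 were tested, all 7 with positive fold changes, and 1 gene, Chad, made up 90.8% to 98.8% of their summed level. Chad was at 13738, 20953 and 7209 CPM in Piezo1 GOF and at 3561, 465 and 2180 CPM in WT, and the other chondrocyte markers summed to 145 to 254 CPM in Piezo1 GOF and 46.9 to 73.7 CPM in WT. The 4 not tested, Matn1, Col9a1, 3110079O15Rik and Lect1, were at 0 in some libraries. Of 8 bone markers 5 were tested, 4 of them with positive fold changes, and the exception was Phex (-1.85 ± 1.39). Ibsp was at 886, 1736 and 446 CPM in Piezo1 GOF and at 178, 19.0 and 71.0 CPM in WT, and the other bone markers summed to 48.9 to 58.1 CPM in Piezo1 GOF and 20.2 to 29.9 CPM in WT. Bglap, Dmp1, Sost and Phex were at 0 in some libraries. The 4 adipocyte markers summed to 356 to 922 CPM in Piezo1 GOF and 198 to 398 CPM in WT, and the 5 endothelial markers to 349 to 526 CPM in Piezo1 GOF and 492 to 662 CPM in WT. WT replicate 1 stood apart with 1802 CPM of 4 Schwann cell markers, against 38.4 to 47.4 CPM in Piezo1 GOF and 24.1 and 9.62 CPM in the other WT libraries (Sox10 was at 0 in WT replicate 3), and with 3632 CPM of 4 smooth muscle and pericyte markers, against 557 to 800.4 CPM in Piezo1 GOF and 1005 and 936 CPM in the other WT libraries. Without WT replicate 1, the log2 fold changes of Lox, Pcolce, Pcolce2 and Adamts2 were 1.93, 1.94, 2.996 and 1.75. The part of these cell types in the members' differences was not tested.

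**Figure D5:**
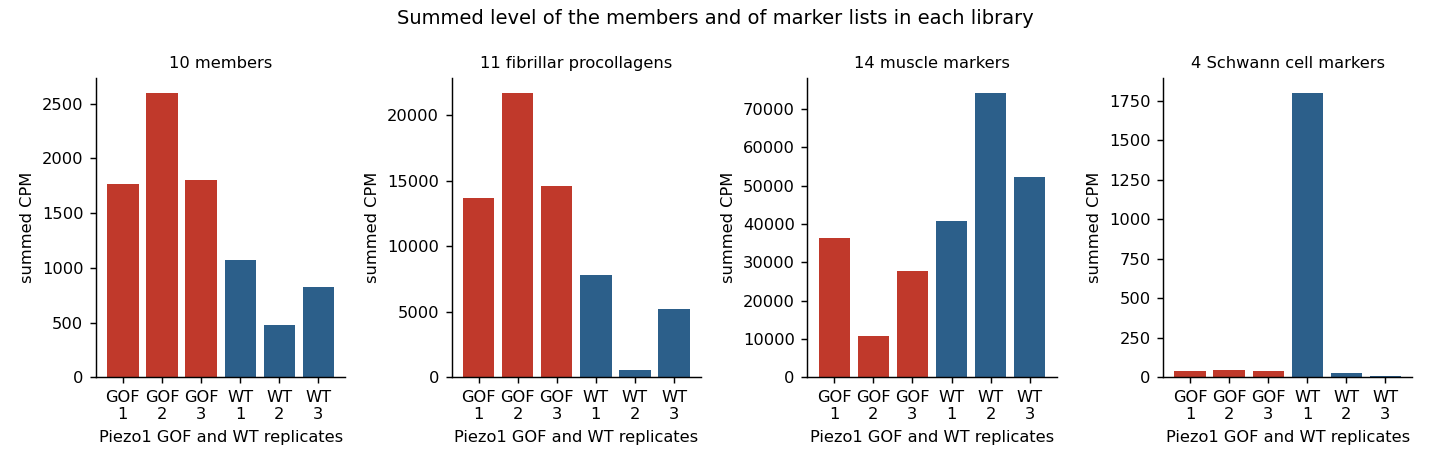
Summed CPM (y axes from 0) of the 10 members, of 11 fibrillar procollagens, of 14 skeletal muscle markers and of 4 Schwann cell markers in each library, with Piezo1 GOF in red to the left of WT in blue. Piezo1 GOF replicate 2 has the highest sum of the members and the lowest of muscle markers, WT replicate 2 the lowest sum of the members and the highest of muscle markers, and WT replicate 1 alone has a high sum of Schwann cell markers.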

How the data were processed

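The authors deposited estimated counts (expected counts) per gene, neither scaled for depth nor for length, for 6 Achilles tendon libraries, 3 Piezo1 GOF and 3 WT, grouped by the genotype in their titles. The submitters' processing notes list the tools bcl2fastq, STAR, RSEM and edgeR and the build mm10. Tool versions, the gene annotation and the use of strand are not stated there. Libraries came from the GenNext RamDA-seq kit, per the labels' protocols, which primes also outside poly(A) tails. Library totals lay between 8131527 and 17180856 counts, and between 7.80% and 8.88% of values were not whole.

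Counts were rounded, filtered with filterByExpr of edgeR (minimum count 10; 13466 genes left), scaled with TMM factors and fitted with edgeR's quasi-likelihood test over all genes, two-sided, at an adjusted p (Benjamini-Hochberg) under 0.05. CPM use the TMM-scaled library sizes. The common dispersion was 0.113. Each SE of a log2 fold change was its absolute value divided by the square root of its F statistic. The 95% intervals were built from this SE and the t distribution. Ratios within a library (counts + 1) were compared by two-sided exact permutation tests. The chain was tested on simulated data, in which each gene varied on its own and tissue content did not differ between libraries. The outcome is not given here. Replicates differed far beyond sampling noise (chi-square per degree of freedom 33.3 to 113). Coordinates and lengths are from GENCODE M21 on the same build, and promoters from RefSeq (GRCm38.p6). All 10 members, the 5 context lists with the 3 smallest p each, and 9 marker lists were reported by rule, and the members and lists were chosen with earlier results of these data known. Alternatives were other scaling, filters, DESeq2, edgeR's exact test, limma voom, the replicate number as a block, each library left out, muscle markers as a covariate or removed, and, chosen after seeing the data, removal of Rn45s and Lars2. Versions were edgeR 4.0.16, DESeq2 1.42.0 and limma 3.58.1 under R 4.3.3, and scipy 1.17.1, numpy 2.4.6, matplotlib 3.10.9 and pandas 2.3.3 under Python 3.11.15.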

Additional observations from a re-analysis of the deposited data

How the results depend on the processing

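The count of genes past the threshold over the whole table, 2 higher and 0 lower by edgeR's quasi-likelihood test, moved with most settings. It was 0 higher with total counts only, with the replicate block and with the muscle marker level as a covariate, 141 higher and 24 lower with no count filter, 511 and 369 with DESeq2, 452 and 237 with edgeR's exact test, 97 and 19 with limma voom, and 128 and 23 at a threshold of 0.1. Leaving out 1 library gave 0 to 182 higher and 0 to 46 lower, and only the fit without WT replicate 1 was above 0. The cause of these shifts was not tested.

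The median log2 fold change of the members lay between 0.68 and 1.07 under all settings run. The 6 genes above the WT range kept a positive sign under all 18 settings each. Loxl1, at -0.034, changed sign with total counts only (0.0259), limma voom (0.0334) and the replicate block (0.0427), and leaving out each library gave -0.318 to 0.316, above 0 without Piezo1 GOF replicate 2 or WT replicate 1. Bmp1 changed sign with the muscle marker level as a covariate (-0.0935). Among the ratios, that of both enhancers to collagen changed sign without WT replicate 2 and ran from -1.196 to 0.0329 when each library was left out. Same-numbered libraries did not deviate together (correlations of -0.22, -0.16 and -0.05). As tissue content also differed between libraries, this does not settle whether the numbers pair them. With the block, Pcolce2 had an edgeR adjusted p of 0.238. No library correlated best with its own number. With 3 libraries per genotype, the 95% intervals of Loxl1, Loxl2, Bmp1 and Adamts14 hold 0 and differences of either sign.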
